A study of Drosophila melanogaster with 6 samples.

Results

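ImpE1, ImpE2, ImpE3, ImpL1 and ImpL2, a group of ecdysone-inducible genes, were followed in whole stage 11 Drosophila embryos. Their members were taken by symbol: every probe set of the Affymetrix Drosophila Genome 2.0 array that the annotation assigns to 1 of these genes and to no other gene. This gave 8 of 18769 probe sets, and 5 of 11982 named genes. ImpE1 had 4 probe sets and each of the other genes had 1. The wild type (WT) embryos were of the Oregon R strain, and the mutants carried fkh6, an allele of the FoxA gene fork head (fkh), with Oregon R also given as their strain. Both genotypes were collected and aged at 25 C and sorted with an embryo sorter, and RNA of 3 independent WT and 3 independent mutant collections was hybridized, each to its own array. For other experiments of the study, fkh6 homozygotes were picked by the lack of balancer GFP; for the arrays only the sorter is named. No deletion or transgene is named for the embryos on the arrays, and each array averages all cells of many embryos.

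The Imp genes were first found in imaginal discs, the larval tissues that form adult appendages, as transcripts on membrane-bound ribosomes that rise after treatment with the steroid hormone ecdysone. ImpE genes responded early and ImpL genes late. Transcripts on such ribosomes generally encode secreted or membrane proteins. Ecdysone binds a receptor made of EcR and Usp, which switches on transcription factors such as Broad and Hr3, and these control later genes. In the embryo, ecdysone is needed for morphogenesis and for the formation of the cuticle.

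Values are log2 intensities as normalized by the authors with RMA, and changes are given as fkh over WT. Median values of the arrays lay between 5.36 and 5.45. The spread was wider among mutant arrays (median SD of a probe set 0.146, against 0.0751 in WT), and the lowest correlation between arrays of a genotype was 0.982, for fkh replicates 2 and 3, across probe sets, which are not independent replicates. The fkh transcript was at 10.23, 10.11 and 10.28 in WT replicates 1 to 3 and at 10.83, 10.62 and 10.64 in the mutants, so it was present in all arrays and its level does not check the genotype labels. A probe set was called changed at a Benjamini-Hochberg adjusted p under 0.05 over all probe sets (limma) with a fold change over 1.4. The fkh transcript itself was called higher in the mutants, just over that fold (change 0.49, adjusted p = 0.012, limma). With 1 probe set per gene, the brightest over all arrays, 7.80% of all genes were called higher in fkh mutants and 7.89% lower. Rises and falls depended on scaling: 50.2% of calls over all probe sets were rises with the values as deposited, 65.3% with cyclic loess and 73.8% with scaling to ribosomal proteins, which moved the median change by 0.0816 and 0.164 (log2).

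Of the 5 Imp genes, ImpL1 and ImpE1 were called higher in fkh mutants, none was called lower, and ImpE2, ImpE3 and ImpL2 did not pass the test. The 2 called genes were 30.1-fold and 6.27-fold higher. ImpE2 was 2.85-fold higher, with 1 mutant array at the WT level. ImpL2 and ImpE3 were close to WT, at 1.18-fold higher and 1.22-fold lower. The count of 2 in 5 stands beside the 7.80% of all genes called higher, and with 5 genes it is given as a description.

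**Figure D1:**
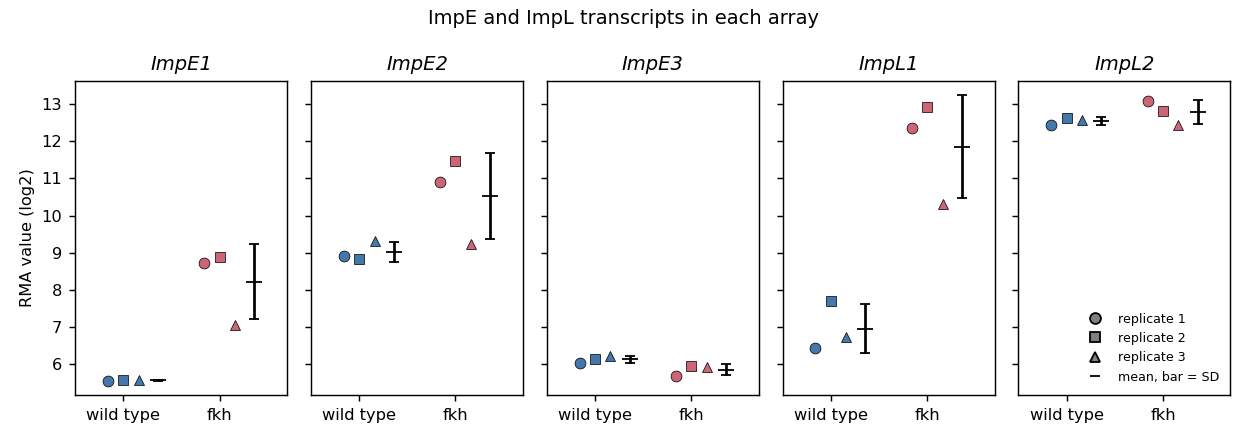
RMA values (log2, vertical axis) of the brightest probe set of each Imp gene in 3 WT and 3 fkh arrays, where symbols mark replicates and the bar is the mean with SD. All fkh arrays lie above all WT arrays for ImpE1 and ImpL1 and below them for ImpE3. Groups did not overlap in 38.6% of all probe sets and, by the brightest probe set, in 5286 of 11982 genes. The lowest mutant array is fkh replicate 3 for ImpE1, ImpE2, ImpL1 and ImpL2.

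ImpE1 encodes a protein with repeats like those of the LDL receptor. Its brightest probe set, 1625625_at, was at 5.55, 5.56 and 5.57 in WT and at 8.72, 8.87 and 7.05 in fkh replicates 1 to 3. The 3 WT arrays were nearly equal, and the groups did not overlap. Groups without overlap, in either direction, were found in 38.6% of all probe sets. By the brightest probe set of each gene, they were found in 5286 of 11982 genes. The rise was 2.65 on the log2 scale (standard error 0.45, 95% interval 1.59 to 3.71, adjusted p = 0.0089, limma). Relative to the WT mean, the mutant arrays were 8.90-fold, 9.91-fold and 2.80-fold higher, so that replicates 1 and 2 lay near each other and replicate 3 well below them. Without fkh replicate 3 the rise was 9.39-fold.

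The other 3 probe sets of ImpE1 showed no call. Probe set 1631375_a_at was at 4.65, 4.65 and 4.44 in WT and at 4.92, 5.08 and 4.43 in fkh (log2 fold change 0.23, standard error 0.17, adjusted p = 0.41, limma), with the order of the mutant arrays as in the brightest probe set but overlapping groups. Probe set 1634661_at was at 4.60, 4.67 and 4.83 in WT and 4.44, 4.40 and 4.51 in fkh, a change of -0.25 (adjusted p = 0.10, limma). Probe set 1634617_at lay between 3.85 and 4.07 in all arrays (change -0.03). As a guide to low signal, 165 odorant, gustatory and ionotropic receptor genes, which act in late sensory neurons, had a WT median of 4.57 and a 95th percentile of 5.44. The 3 dimmer probe sets of ImpE1 had group means below this percentile in both genotypes, and the brightest probe set lay at 5.56 in WT, just over it. The rise of ImpE1 therefore rests on 1 of 4 probe sets, and its fold depends on the background of the array. With the mean of the 4 probe sets the change was 0.65 (adjusted p = 0.023, limma).

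**Figure D2:**
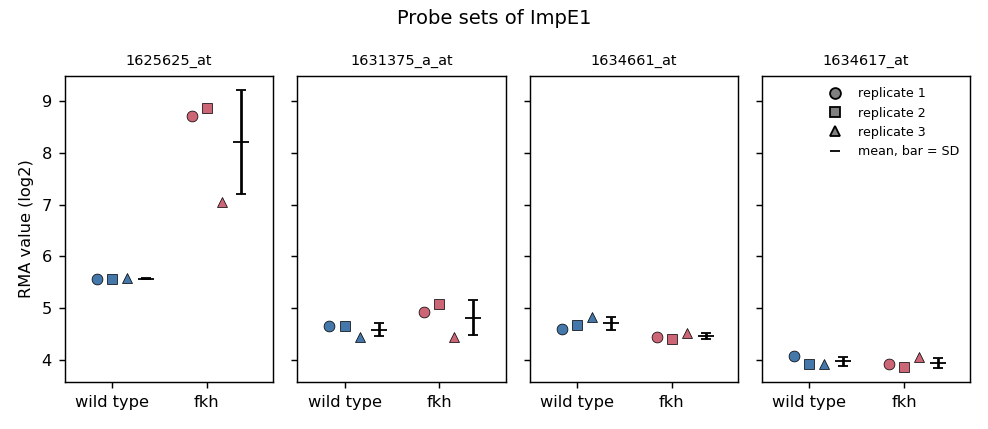
RMA values (log2, vertical axis) of the 4 probe sets of ImpE1 in each array, with replicates as symbols and the mean with SD as a bar. Probe set 1625625_at separates the genotypes, whereas the other 3 stay between 3.85 and 5.08 in all arrays.

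ImpE2 encodes a protein that imaginal discs secrete. It was at 8.90, 8.84 and 9.32 in WT and at 10.89, 11.46 and 9.24 in fkh replicates 1 to 3. Replicates 1 and 2 were above all WT arrays, at 3.66-fold and 5.43-fold over the WT mean, and replicate 3 was 1.16-fold over that mean and below WT replicate 3, so the groups overlapped. The change was 1.51 (standard error 0.52, 95% interval 0.28 to 2.75), with an adjusted p of 0.098 in limma, and it was not called. Its range among mutant arrays, 2.22, was larger than the change itself. Without fkh replicate 3 ImpE2 was 4.46-fold higher and called (adjusted p = 0.0012, limma). With arrays weighted by their spread it was called at 3.52-fold (adjusted p = 0.0025, limma). That setting gave fkh replicate 3 the lowest weight, 0.224, so it is not independent of leaving that array out. Without fkh replicate 1 the change was 1.33 and without fkh replicate 2 it was 1.05. Neither was called (adjusted p = 0.22 and 0.19, limma).

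ImpE3 was the only Imp gene with a negative change in all settings tried. It was at 6.02, 6.14 and 6.22 in WT and at 5.67, 5.94 and 5.92 in fkh. All mutant arrays were below all WT arrays. Groups without overlap, in either direction, were found in 38.6% of all probe sets and in 5286 of 11982 genes. The change was -0.29 (standard error 0.10, 95% interval -0.53 to -0.04), and it did not pass the test (adjusted p = 0.11, limma). Its size depended on the scaling, with -0.18 under cyclic loess and -0.12 under scaling to ribosomal proteins. With arrays weighted by their spread it was -0.40 (adjusted p = 0.016, limma), still under the fold minimum. Replicate 3, the lowest mutant array in the other 4 genes, was at the level of replicate 2 here.

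ImpL1 showed the largest change of the group. Its probe set 1640837_a_at was at 6.43, 7.69 and 6.72 in WT and at 12.36, 12.92 and 10.30 in fkh replicates 1 to 3. The lowest mutant array was thus 2.60 above the highest WT array. The rise was 4.91 (standard error 0.67, 95% interval 3.32 to 6.51, adjusted p = 0.0040, limma). Relative to the WT mean, the mutant arrays were 42.5-fold, 62.9-fold and 10.2-fold higher. The spread was wide in both genotypes (SD 0.66 in WT and 1.38 in fkh): WT replicate 2 stood over the other WT arrays, as fkh replicate 3 stood under the other mutants. The fold was 51.7 without fkh replicate 3 and 20.8 without fkh replicate 2, and in both cases the call was made.

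ImpL2 encodes a secreted immunoglobulin-domain protein that binds insulin-like peptides and lowers insulin signalling. It was at 12.43, 12.64 and 12.57 in WT and at 13.09, 12.83 and 12.45 in fkh replicates 1 to 3. Replicates 1 and 2 were above all WT arrays and replicate 3 was within their range. The change was 0.24 (standard error 0.16, 95% interval -0.14 to 0.63, adjusted p = 0.36, limma), and the interval allows a fold from 0.908 to 1.54. Without fkh replicate 3 it was 0.41 (adjusted p = 0.039, limma), still under the fold minimum, and without fkh replicate 1 it was 0.09. Its size depended on the scaling, with 0.27 under cyclic loess and 0.41 under scaling to ribosomal proteins. With arrays weighted by their spread it was 0.44 (adjusted p = 0.027, limma), also under the fold minimum.

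**Figure D3:**
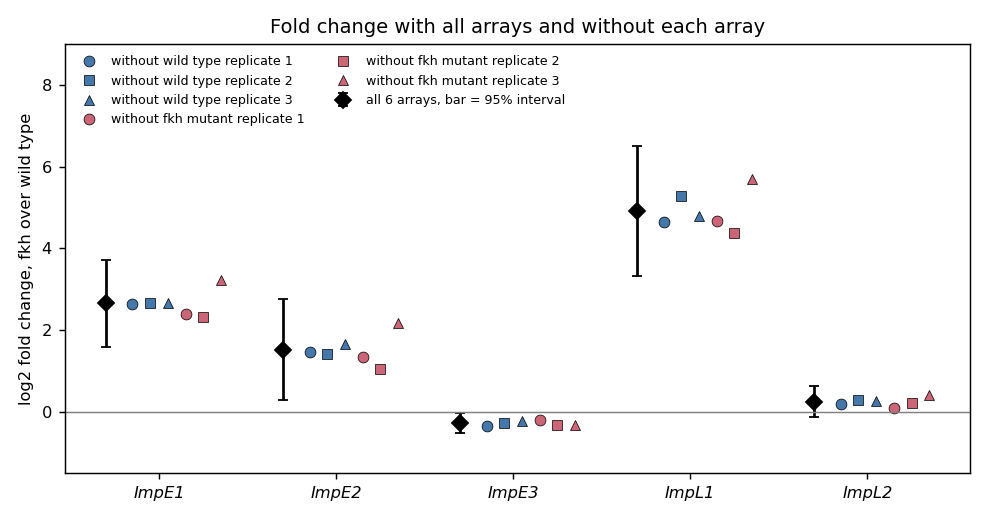
Log2 fold change of each Imp gene (vertical axis) with all 6 arrays (diamond, bar = 95% interval) and with each array left out. Leaving out fkh replicate 3 gave the highest value for ImpE1 (3.23), ImpE2 (2.16), ImpL1 (5.69) and ImpL2 (0.41), and moved ImpE3 little (-0.32).

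ImpE1, ImpE2 and ImpL1 thus shared an order of the mutant arrays, with replicate 2 highest, replicate 1 next and replicate 3 lowest. This order was found in 17.7% of all genes, and 10102 of the 11982 genes were not called. Of the lists below, it was found in 10 of 17 maternal genes, 7 of 14 insulin pathway genes and 0 to 40% of each other. It was found in 15 of 17 measured genes of cuticle-forming epithelia (kkv, knk, serp, Gasp and others, which make chitin and cuticle). These genes had a mean level of 5.44, 5.85 and 5.56 in WT replicates 1 to 3 and of 8.76, 9.24 and 7.65 in fkh replicates 1 to 3. Of them, 12 were called higher (70.6%, against 7.80% of all genes) and none lower, with a median change of 2.50, against -0.07 over all genes. Osi6, of the Osiris family, and Gasp, a chitin-binding protein, were both called higher (changes 8.03 and 5.32). The WT mean of Osi6, 4.24, was under the level of 5.44 reached by sensory receptor genes and that of Gasp, 5.52, just over it, so the size of both changes depends on background. The defining gene ple of cuticle tanning was at 4.42 to 4.74 in all arrays. Osi6 was at 13.40, 13.66 and 9.74 in the mutants, with replicate 3 lowest as in the Imp genes. WT replicate 2, the highest WT array for ImpL1, was also the highest for 10 of the 17 cuticle genes and for 31.4% of all genes. The order of the mutant arrays is not particular to cuticle genes. Of genes called higher outside that list, br, Cyp18a1, foxo and CG14110 had it, and Hr3, Hr78, vg and al did not. The cuticle list was written with earlier results of these arrays known, and its part in the Imp values was not tested.

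Maternal transcripts, which the egg receives from the mother, also differed between the mutant arrays. Their 17 measured genes had a mean level of 7.72, 8.74 and 7.46 in fkh replicates 1 to 3 and of 7.92, 7.76 and 7.93 in WT, and none was called. Replicate 2 was thus the highest for them too, and 10 of the 17 had the array order of ImpE1, ImpE2 and ImpL1. In their mean, replicate 1, which was near replicate 2 in ImpE1, was near replicate 3. Of 5 genes of cellularization, an earlier event, halo was called lower (change -1.05) and none higher. Of 8 genes of the amnioserosa, the extraembryonic tissue linked to ecdysone in embryos, raw was called lower (-0.76) and none higher, with changes from -0.76 to 0.38. Of 5 genes of imaginal primordia, vg and al were higher (0.86 and 0.51) and nub was lower (-0.72), while Dll and esg were at a change of 0.00. Such counts stand beside the 7.80% of all genes called higher and the 7.89% called lower. The part of embryo age and of cell composition in the Imp values was not tested, and in such whole embryos a change in the number of cells of a type cannot be told apart from a change in RNA per cell.

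**Figure D4:**
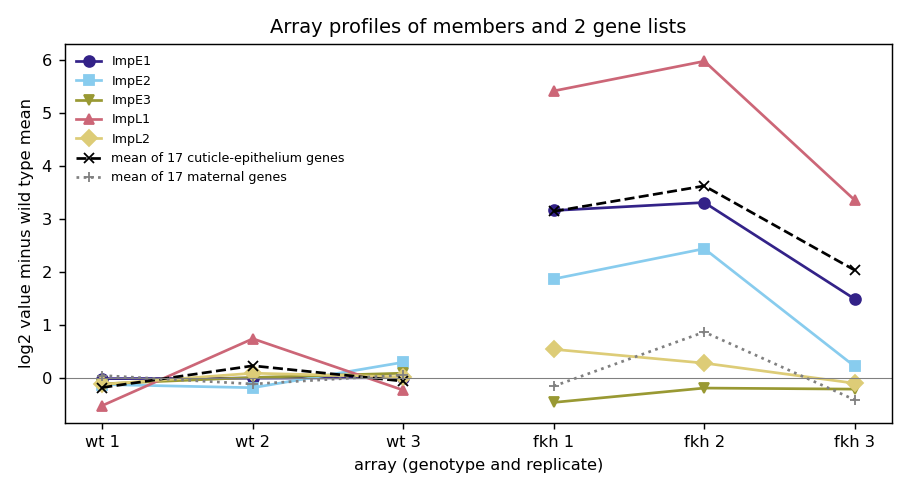
Log2 values minus the WT mean (vertical axis) in each of the 6 arrays for the Imp genes and for the mean of 17 genes of cuticle-forming epithelia (dashed) and 17 maternal genes (dotted). ImpE1, ImpE2, ImpL1, the cuticle genes and the maternal genes peak in fkh replicate 2 and are lowest among mutants in fkh replicate 3.

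The genes most like the called members were found by the root mean square difference of log2 values, centred on the WT mean, over the 6 arrays. For ImpE1 they were tfc (difference 0.110), frac (0.155) and tn (0.156), the last a muscle protein of the TRIM family. Values of tfc were 4.71, 4.62 and 4.58 in WT and 7.91, 8.16 and 6.09 in fkh. For ImpL1 they were CG15282 (0.298), CG4115 (0.376) and the Osiris gene Osi20 (0.401). Values of CG15282 were 4.26, 5.31 and 4.81 in WT and 10.50, 11.13 and 8.59 in fkh, with WT replicate 2 and fkh replicate 2 the highest of their groups as in ImpL1. ImpE2 was at 0.828 from ImpE1 by this measure, and ImpL1 at 1.66. The WT means of all 6 genes, from 4.64 for tfc to 5.25 for Osi20, were under the level of 5.44 reached by sensory receptor genes, so the differences from the WT mean, and with them the order of likeness, depend on background. These are descriptions over arrays that the genes share.

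The Imp genes other than ImpE3 lie on chromosome arm 3L and ImpE3 lies on 3R, the assignments being those of RefSeq Release 6. Probe sets called higher made up 8.67% of those on 3L and 7.08% of those on 3R. Next to ImpL1, CG14110 was called higher: it was at 5.59, 7.20 and 5.88 in WT and at 9.82, 10.86 and 9.36 in fkh (change 3.79, adjusted p = 0.0037, limma). On the other side CG14107 was at 7.26, 7.29 and 6.99 in WT and at 10.16, 10.55 and 6.29 in fkh, so it was up in fkh replicates 1 and 2 and below WT in replicate 3 (change 1.82, adjusted p = 0.29, limma). WT replicate 2 was the highest WT array for ImpL1 and for both neighbours, as for 31.4% of all genes. In CG14107 it was nearly equal to WT replicate 1. Next to ImpE1, the isocitrate dehydrogenase gene Idh was at 7.20, 7.10 and 7.10 in WT and at 8.45, 9.51 and 7.72 in fkh (adjusted p = 0.053, limma), and the protease gene Jon66Ci did not pass the test (change 0.19).

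Genes of ecdysone reception and response did not move in 1 direction. Of 13 measured genes, 3 were higher (23.1%, against 7.80% of all genes), 1 was lower (7.69%, against 7.89%) and 9 were not called. The median change was -0.06, against -0.07 over all genes. Hr3, a nuclear receptor gene that ecdysone induces, was at 3.72, 4.37 and 3.83 in WT and at 5.88, 6.56 and 6.00 in fkh (4.51-fold higher, adjusted p = 0.0015, limma). The early response gene br was 2.78-fold higher, at 5.82, 6.72 and 5.16 in fkh against 4.18 to 4.58 in WT, with the array order of ImpE1, ImpE2 and ImpL1. Its other 4 probe sets were not called (changes from -0.13 to -0.01). In WT, 1626996_s_at, 1636931_at and 1629683_at of these were brighter (means 4.98, 4.86 and 4.70, against 4.43). The called probe set of br was therefore the brightest over all arrays only through its fkh values. The nuclear receptor gene Hr78 was 1.56-fold higher, with fkh replicate 3 the highest array. WT values of Hr3 and br were under the level of 5.44 reached by sensory receptor genes, so their folds depend on background. The count of higher genes was 2 with the mean of the probe sets of each gene, and 1 without any 1 of the WT arrays.

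Transcripts of the receptor genes were at or below the WT level. EcR was at 7.97, 7.80 and 7.74 in WT and at 7.28, 7.40 and 7.54 in fkh, a change of -0.43 with an adjusted p of 0.030 (limma) that stayed under the fold minimum. Its partner usp had a change of -0.19 (adjusted p = 0.21, limma). The coactivator gene tai was at 8.59 to 8.71 in WT and at 7.71 to 7.88 in fkh, and it was 1.82-fold lower (adjusted p = 8.9e-04, limma). The usp change was near the 0.164 by which scaling to ribosomal proteins moved the median change. These are transcript levels of whole embryos, and their part in the ImpL1 and ImpE1 values was not tested.

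**Figure D5:**
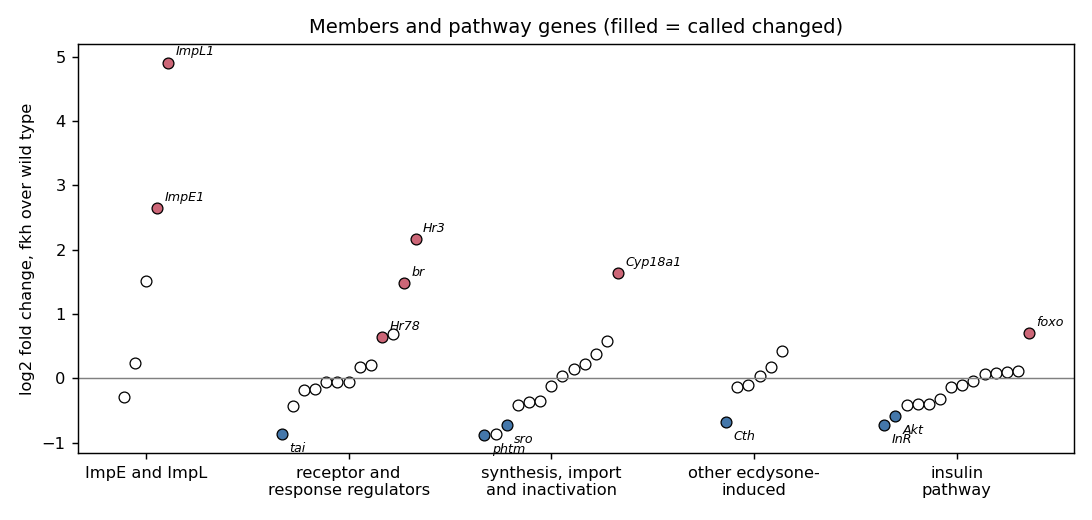
Log2 fold changes, fkh over WT (vertical axis), of the Imp genes and of genes in 4 pathway lists, 1 point per gene, with filled points for genes called changed. ImpL1 lies at 4.91, ImpE1 at 2.65 and the pathway gene Hr3 at 2.17; the WT level of Hr3 (3.98) was within the range of low signal and that of ImpE1 (5.56) just over it, so the points of these 2 genes have no exact order.

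Among 13 genes of ecdysone synthesis, import and inactivation, 1 was higher (7.69%, against 7.80% of all genes). In the same list, 2 were lower (15.4%, against 7.89%), and the median change was -0.12, against -0.07 over all genes. Cyp18a1, whose enzyme inactivates ecdysone, was at 5.45, 5.57 and 5.78 in WT and at 7.31, 7.51 and 6.86 in fkh (3.09-fold higher, adjusted p = 0.0016, limma), and its other probe set was also called higher (change 1.02). Mutant replicate 3 was the lowest here too. The synthesis genes phtm and sro were 1.84-fold and 1.66-fold lower (adjusted p = 0.0048 and 0.0027, limma). The fkh mean of sro, 5.31, was under the level of 5.44 reached by sensory receptor genes. The WT mean of Cyp18a1, 5.60, was just over it, so the folds of sro and Cyp18a1 depend on background. Oatp74D, the ecdysone importer gene, had a change of -0.42 and did not pass the test (adjusted p = 0.076, limma). After cyclic loess or ribosomal protein scaling 3 genes of this list were higher.

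Of 6 other genes first described as ecdysone-induced or ecdysone-dependent, none was called higher and 1 was lower. Over all genes, 7.80% were called higher and 7.89% lower. The gene Cth (Eip55E), which encodes cystathionine gamma-lyase, was 1.60-fold lower (10.05, 10.32 and 10.35 in WT, 9.43, 9.71 and 9.55 in fkh, adjusted p = 0.0091, limma). The median change of the 6 was -0.035. The gene ImpL3 (now Ldh) was not analysed here.

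For the insulin pathway, on which ImpL2 acts, 14 genes were measured. Of these, foxo was higher (7.14% of the list, against 7.80% of all genes). InR and Akt were lower (14.3%, against 7.89%), and the median change was -0.12, against -0.07 over all genes. The insulin receptor gene InR was at 9.21, 9.39 and 9.54 in WT and at 8.63, 8.92 and 8.41 in fkh (1.65-fold lower, adjusted p = 0.018, limma), the kinase gene Akt was 1.49-fold lower and the transcription factor gene foxo 1.62-fold higher. Ilp2, a ligand bound by ImpL2, was at 4.78 to 5.14 in all arrays (adjusted p = 0.34, limma), under the level of 5.44 reached by sensory receptor genes. No gene of this list was called lower after cyclic loess or without WT replicate 2 or 3, and none was called higher without any 1 of the WT arrays.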

How the data were processed

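The deposited values are log2 intensities for 18769 probe sets, made by the authors with RMA in Partek (versions not given in the sources used here). No value was filtered out, and no detection call was used. Probe sets were named with an array annotation, whose names were checked against RefSeq Release 6 by gene ID: 13647 named 1 gene (13544 of them matched), 402 several and 4720 none. Several or no names kept a probe set out of gene values, not out of the fit. The comparison of fkh with WT used lmFit and eBayes of limma 3.58.1 (R 4.3.3) on all 6 arrays, with no covariate, and was tested on simulated data first. The number of arrays limits the precision, and intervals are 95% intervals of the fit.

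The members and lists were chosen with earlier results of these data known. Named genes are the members, up to 4 called genes with the largest change in each pathway list, EcR, usp, Oatp74D, Ilp2 and InR, up to 2 called genes in each tissue list, and the 3 most alike genes and the neighbours of called members. Other names (kkv, knk, serp, ple, al, Dll, esg, Ldh, Eip63E, Hr4) were chosen after values were seen. Alternatives were another normalization, test, weighting, filter, threshold or probe set rule, the replicate number as a block, and leaving out each array. Replicate numbers do not pair the arrays (correlations of deviations 0.072, 0.0727 and -0.0785).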

Additional observations from a re-analysis of the deposited data

How the results depend on the processing

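ImpE1 and ImpL1 kept their direction in all alternatives and their call in all but the equal-variance test that does not pool the spread (changes of 2.65 and 4.91, adjusted p = 0.083 and 0.060), where 0 of the 5 genes were called; this test called 406 probe sets higher and 538 lower, against 1162 and 1151. ImpE2 was called with array weights (1.82), at an unadjusted p under 0.05 (1.51) and without fkh mutant replicate 3. Leaving out 1 array gave log2 changes from 2.32 to 3.23 for ImpE1, 1.05 to 2.16 for ImpE2, -0.34 to -0.20 for ImpE3, 4.38 to 5.69 for ImpL1 and 0.09 to 0.41 for ImpL2, and 2 to 3 members called higher. No reversal was found. With the replicate number as a block, changes were 2.65 for ImpE1 and 4.91 for ImpL1, and no call of a member changed. The counts over all probe sets were 696 and 759 without WT replicate 1, and 668 and 705 without WT replicate 3. In the pathway lists single calls moved with the setting. Leaving out 1 array gave 1 to 4 higher and 1 to 2 lower receptor and response genes, 1 to 2 higher and 2 to 3 lower synthesis, import and inactivation genes, 0 to 1 higher and 1 lower of the other ecdysone-induced genes, and 0 to 1 higher and 0 to 3 lower insulin pathway genes. In the equal-variance test the counts were 1 higher receptor and response gene, 1 lower synthesis, import and inactivation gene, 0 lower other ecdysone-induced genes, and 0 insulin pathway genes in either direction. With a fold minimum of 2, 0 genes of these lists were lower and 0 insulin pathway genes higher. With no fold minimum, 2 receptor and response genes and 4 insulin pathway genes were lower, and 1 other ecdysone-induced gene was higher. With array weights, 2 receptor and response genes and 1 insulin pathway gene were lower and 2 synthesis, import and inactivation genes higher, as were 2 of them at an unadjusted p. After cyclic loess or ribosomal protein scaling, 3 synthesis, import and inactivation genes and 1 other ecdysone-induced gene were higher, and 0 and 1 insulin pathway genes lower. The causes were not tested.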

Other observations

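The gene next to ImpE2 on arm 3L is Eip63E, a cyclin-dependent kinase gene that was also first described as ecdysone-induced. It was at 10.81, 10.59 and 10.74 in WT and at 10.66, 10.75 and 10.33 in fkh replicates 1 to 3 (change -0.14, adjusted p = 0.52, limma), without the high values in fkh replicates 1 and 2 that ImpE2 had.

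Of the 3 probe sets of the nuclear receptor gene Hr4, only 1632733_at was called. The brightest was at 5.66 to 5.88 in WT and 5.62 to 5.79 in fkh, and the third, 1632066_at, had a change of -0.01. The dimmer probe set 1632733_at was called higher, at 4.57, 4.75 and 4.50 in WT and at 5.54, 6.18 and 6.01 in fkh (change 1.31). Its WT mean, 4.60, was under the level of 5.44 reached by sensory receptor genes, so its fold depends on background.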
